A study of Homo sapiens with 11 samples.

Results

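Weak CTCF sites shared by all genotypes are 9834 of the 19044 CTCF summits called in WT HCT116 p53-/- cells. A WT summit belonged to the set when its own value was below 10 and when an ORC2 deletion summit and an ORC2 rescue summit both lay within 500 bp of it. Each summit carries a value, read here as the −log10 of its q because the lowest values of each CTCF list stand just above the −log10 of 0.05. The sources used here do not state the calling settings. A higher value marks a peak that stands out more from its surroundings. The set makes up 67.3% of the 14611 WT summits with a value below 10. The rule used the WT value and the presence of a summit in each list, and what it used is described below without a test.

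CTCF was mapped by CUT&RUN, in which a nuclease held by an antibody cuts out the DNA around a bound protein. The ORC2 deletion cells were a single CRISPR/Cas9 clone, the ORC2 rescue cells were clonally selected after ORC2 with its flanking untranslated regions had been put back from the pLHCX vector, and the WT cells were the parental line. All 3 genotypes share the HCT116 background, a human colorectal cancer line, and its loss of p53. The 11 libraries form 6 groups, a CTCF antibody and an IgG control for each genotype, with 2 libraries each and 1 for rescue IgG. The CTCF data are 1 summit list per genotype, taken as the pool of its 2 libraries, with 31112 summits in ORC2 deletion, 20810 in ORC2 rescue and 19044 in WT cells. There is thus no spread between replicates, the depth is unknown, and no p-value is given. Intervals are 95% intervals that cover counting error only, and positions of sites are on hg38.

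CTCF is a zinc finger protein that binds a long, well conserved DNA motif and stops the cohesin ring as it extrudes chromatin loops. Strong CTCF sites tend to anchor loops and domain borders and to be occupied in many cell types, while weak sites vary more between cell types. ORC2 is a subunit of the origin recognition complex, which loads the replicative helicase onto chromatin before DNA synthesis.

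The letters of the DNA under the sites could be read where a summit fell in a RefSeq promoter window, which runs from 250 bases before to 50 bases after a gene start (GRCh38.p14). Of the weak shared sites, 340 (3.46%, interval 3.11 to 3.84) lay in such a window. The motif searched on either strand was the core of the CTCF consensus, which reads CCA, any 2 bases, AG, any 2 bases and GGC. The 10 members with a match and the highest WT values are shown because they put the CTCF letters beside the values of weak summits. Each sequence is given 5′ to 3′ along the motif, with the matched bases in capitals.
TOM1L2: gtgtaacgaCCAATAGGAGGCgggcttcgt
SCAP: ctccggtgtCCACCAGAGGGCgaacgggag
CHST7: ccaagccggCCAATAGGCGGCtctccggct
SLC35B1: ccttggcagCCATGAGCCGGCagttctggt
TLR6: cagtgtgggCCAACAGATGGCaccaatctg
COMMD2: atgtatgctCCACGAGGGGGCgtgtcggat
LOC105372694: caggcgtggCCAGCAGGGGGCggcgtgggc
AFMID: ggattcctcCCACGAGGGGGCgggctgcgg
SPEF2: tcttacccgCCAGCAGGTGGCgaaacacga
LOC107984881: ccatttgggCCACCAGGTGGCagacaagga

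The TOM1L2 stretch lies at chr17:17972485-17972514 on the minus strand, before the start of a gene for an endosomal sorting protein, and its site had values of 12.3 in ORC2 deletion, 12.1 in rescue and 9.89 in WT cells. SCAP encodes the escort protein of the sterol-sensing SREBP factors. Its stretch lies at chr3:47476042-47476071 on the minus strand, and the values were 23.3 in deletion, 9.30 in rescue and 9.43 in WT cells. TLR6, a receptor of innate immunity, has its stretch at chr4:38856873-38856902 on the minus strand, with 7.71 in deletion, 9.50 in rescue and 9.19 in WT cells. SPEF2, needed for the sperm flagellum, has its stretch at chr5:35617785-35617814 on the plus strand, with 26.8 in deletion, 15.7 in rescue and 8.27 in WT cells. AFMID encodes a formamidase of tryptophan breakdown. Its stretch lies at chr17:78187164-78187193 on the minus strand, with 17.9 in deletion, 6.93 in rescue and 8.54 in WT cells. The other stretches lie at chrX:46573707-46573736 on the plus strand (CHST7, a sulfotransferase), chr17:49707989-49708018 on the minus strand (SLC35B1), chr3:149752702-149752731 on the minus strand (COMMD2), chr20:58179714-58179743 on the minus strand (LOC105372694) and chr16:66954252-66954281 on the plus strand (LOC107984881). Over the 10 sites the deletion value was above 10 at 8, whereas every WT value is below 10 by the rule. Of all members 58.5% had a deletion value of 10 or more, and of all deletion summits 39.3%. The 10 sites were taken for high WT values, and members with a WT value from 7.5 to 10 had a median deletion value of 14.0. The count is thus not read as a trait of sites with the motif.

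The motif was found in 61 of the 388 promoter windows that held a weak shared site (15.7%, interval 12.4 to 19.7), beside 35 of 226 windows with a strong shared site (15.5%, 11.4 to 20.8). Strong shared sites are the 4256 WT summits of 10 or more with a summit in both other lists by the same distance. Windows with a weak WT summit that was not shared held it in 28 of 413 (6.78%, 4.73 to 9.62), and all 34961 windows in 2.41%. Counted over sites, the share was 15.3% at weak shared sites and 7.85% at weak summits not shared, a difference of 7.45 percentage points (interval 2.66 to 12.3). These classes also differ in WT value, with medians of 5.79 and 3.63. The motif shares were not split by WT value, so a part played by it was not tested. Against strong shared sites the difference was -1.45 points, with an interval from -8.15 to 4.72 that takes in 0. With any base allowed in place of the A after the first CC, a looser form that takes in every match of the stricter one, 36.3% of windows with a weak shared site (31.7 to 41.2), 39.8% with a strong shared site (33.7 to 46.3), 21.1% with a weak summit not shared (17.4 to 25.3) and 10.6% of all windows held it. A match says only that these letters are there.

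**Figure D1:**
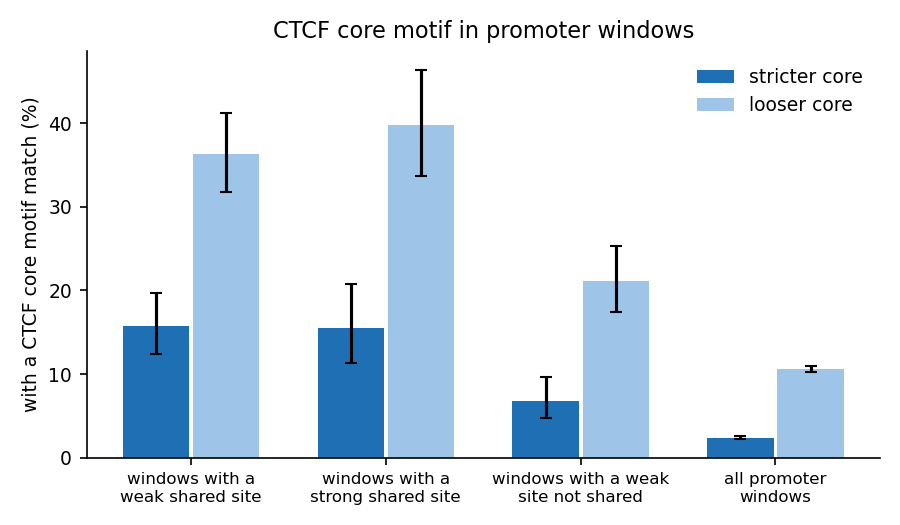
Bars give the percentage of RefSeq promoter windows with a match to the CTCF core motif on either strand, in its stricter and its looser form, with 95% Wilson intervals, for windows that held a weak shared site, a strong shared site or a weak site not shared, and for all windows. Windows with a weak shared site stood at 15.7%, near the 15.5% of windows with a strong shared site and above the 2.41% of all windows.

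The distance from the match to the summit base was taken within these windows. Over the 54 matches at 52 weak shared sites, the median distance was 126 bp from the deletion summit (quartiles 87.2 and 179), 112 bp from the rescue summit (80.2 and 152) and 87.5 bp from the WT summit (34.2 and 127). At strong shared sites these medians were 122, 122 and 114 bp. The windows had been chosen for holding the WT summit, so its distance is bounded by the window and the other 2 are not. Both the match and the WT summit had to lie in the same short window. The distance that the window alone would give was not computed, so nothing is read from these medians.

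The share of WT summits found in all 3 lists depended on the WT value. It was 27.2% (25.2 to 29.4) of WT summits below 2.5, 59.9% (58.6 to 61.2) from 2.5 to 5, 78.1% (76.9 to 79.2) from 5 to 7.5 and 88.6% (87.4 to 89.7) from 7.5 to 10. Of WT summits of 10 or more, 96% (95.4 to 96.5) were shared, and of all WT summits 74%. Among weak WT summits, 86.6% (86.1 to 87.2) had a deletion summit within 500 bp and 70.1% (69.3 to 70.8) a rescue summit. The deletion list is the longer of these 2, and whether its length bears on the difference was not tested. The 4777 weak WT summits left out of the set divided into 2825 with a deletion summit and no rescue summit, 404 with a rescue summit and no deletion summit, and 1548 with neither.

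The limit of 10 falls within a run of close values. Just inside it, 5 members shared a WT value of 9.998. They lay near PIK3CD, a catalytic subunit of PI3 kinase (13.3 in deletion, 8.04 in rescue), near CYP2J2, an epoxygenase of arachidonic acid (10.3 and 7.30), in GNPTAB, which tags enzymes for the lysosome (12.9 and 9.94), and near C14orf132 (16.9 and 16.8) and GOLGA6D (16.5 and 11.97). Just outside it, 5 shared summits had a WT value of 10.01. They lay near HEYL, a repressor downstream of Notch (6.85 in deletion, 7.13 in rescue), near SPTB, a spectrin of red cells (19.1 and 7.52), in ZNF469 (11.6 and 5.14), near FAM90A26 (17.7 and 11.4) and at position 28074191 of chromosome 4, where no protein-coding gene lies within 50 kb (35.2 and 13.3). The values on either side of the limit overlap in both other lists.

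The rule caps the WT value below 10 and sets no such cap in the other lists, so a narrower WT range is fixed by the choice of sites. The nearest deletion summit had a median value of 11.2 (quartiles 7.87 and 15.4, range 1.43 to 55.7), the nearest rescue summit 6.84 (4.76 and 9.60, range 1.34 to 39.8), and the WT summit 5.79 (4.20 and 7.57, range 1.31 to 10.00). At strong shared sites the medians were 21.4 in deletion, 13.7 in rescue and 13.8 in WT cells. Within its own list the median member stood at percentile 66.1 of the deletion list, 52.3 of the rescue list and 46.3 of the WT list. The lists differ in length and carry no scaling to each other, so these ranks cannot show whether the sites changed between genotypes.

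**Figure D2:**
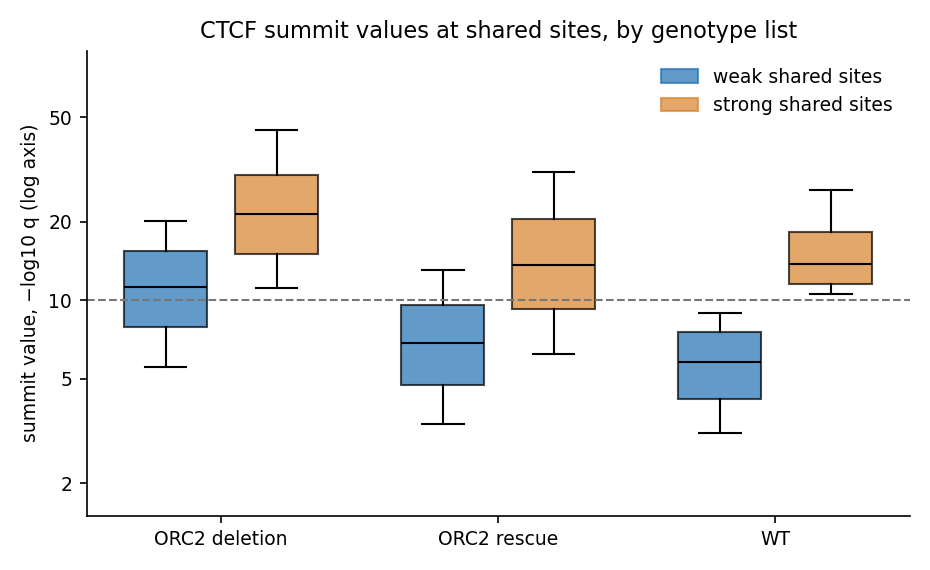
Boxes show the summit value (−log10 q, log axis) at weak shared sites (left box of each pair) and strong shared sites (right box) in the ORC2 deletion, ORC2 rescue and WT lists. The line is the median, the box the quartiles, the whiskers the 10th and 90th percentiles, and the dashed line the limit of 10 that the rule set on the WT value. The weak shared sites have medians of 11.2, 6.84 and 5.79.

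A value of 10 or more was reached by 5755 members in the deletion list (58.5%, 57.5 to 59.5), beside 39.3% of all deletion summits. In the rescue list 2205 reached it (22.4%, 21.6 to 23.3), beside 26.7% of all rescue summits, and in the WT list none can, beside 23.3% of all WT summits. Members were picked for a match in 3 lists, so nothing is read from these shares against the whole lists. Split by both lists, 1875 members (19.1%) were at 10 or more in deletion and rescue, 3880 (39.5%) in deletion only, 330 (3.36%) in rescue only, and 3749 (38.1%) stayed below 10 throughout. The deletion value was above the WT value at 90.7% of weak shared sites (90.2 to 91.3) and at 81.5% of strong shared sites (80.3 to 82.6). The rescue value was above it at 64.8% (63.9 to 65.8) and 43.1% (41.6 to 44.6). The weak sites were chosen for a low WT value, which raises both of their shares by construction. The lists are also unscaled and of unknown depth. Their median values over all summits were 8.06 in deletion, 6.58 in rescue and 6.18 in WT cells. These shares thus do not measure a change in binding at weak or strong sites.

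Across the 9834 members the deletion and rescue values had a Spearman correlation of 0.479, the deletion and WT values 0.363, and the rescue and WT values 0.317. At the 4256 strong shared sites the same values were 0.726, 0.577 and 0.569. The points share the sequence and copy number of each site, the rule cuts the WT values to a narrow range at weak sites, and the correlations are given as a description.

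The highest deletion value belonged to a site 16706 bp outside ADAMTSL4, a secreted matrix protein (chromosome 1, 150532702), with 55.7 in deletion, 29.5 in rescue and 9.06 in WT cells. Next was a site 45996 bp outside RALY, an RNA-binding protein, with 50.6 in deletion, 21.9 in rescue and 8.80 in WT cells. UNC5CL had a site 279 bp outside the gene with 49.4 in deletion, 11.3 in rescue and 9.67 in WT cells. In these 3 the deletion value is the highest and the WT value the lowest, which the choice by deletion value and the limit on the WT value favour. RIN2, an exchange factor for the endosomal GTPase RAB5, held a site with 45.5 in deletion, 28.2 in rescue and 8.46 in WT cells. Sites near CTBS, a lysosomal enzyme, and BPIFB4, and inside CAMTA1, a calmodulin-binding transcription activator, had deletion values of 47.5, 46.0 and 43.6. Also among the first 10 were sites 6520 bp outside DEPTOR, an inhibitor of mTOR (43.8 in deletion, 33.0 in rescue, 9.23 in WT cells), and at 97553612 on chromosome 8, away from protein-coding genes (44.2, 13.7 and 9.60).

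By the rescue value the first was a site 25572 bp from SMIM10 on chromosome X (134965419), with 29.97 in deletion, 39.8 in rescue and 9.34 in WT cells. KREMEN2, a receptor for the WNT inhibitor DKK1, had a site 2260 bp away with 36.1 in deletion, 32.4 in rescue and 8.65 in WT cells. SNX20, a sorting nexin, held a site with 31.1 in deletion, 31.6 in rescue and 8.62 in WT cells. The choice by rescue value favours sites where it is above the deletion value. At 5 of the 10 highest rescue sites it was above by more than 1, and at SNX20 by less. The 5 were SMIM10, LOC124904075 (21.2 in deletion, 31.4 in rescue), CT45A1, a cancer-testis antigen (16.4 and 29.9), RPS3, a protein of the small ribosomal subunit (15.3 and 29.9), and BAHCC1, a reader of histone marks (12.4 and 29.3). The sites of CT45A1, RPS3 and BAHCC1 lay 17585, 10747 and 5672 bp outside the genes. The other sites were those of DEPTOR and ADAMTSL4 and one at 115546155 on chromosome 1 (34.0 in deletion, 31.2 in rescue, 7.24 in WT cells).

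At the weak end, a site 33674 bp from ETV3, an ETS repressor, had the lowest WT value, with 4.33 in deletion, 8.14 in rescue and 1.31 in WT cells. CACNB4, a calcium channel subunit, held a site with 7.07 in deletion, 4.82 in rescue and 1.31 in WT cells. KAZN, a desmosome-associated protein, held one with 1.67 in deletion, 4.67 in rescue and 1.32 in WT cells. A site 37741 bp from CYP26A1, which breaks down retinoic acid, had 4.01 in deletion, 4.46 in rescue and 1.32 in WT cells. A site at 26636854 on chromosome 1 had 14.5 in deletion, 4.13 in rescue and 1.32 in WT cells. Of these 5 the WT value is the lowest of the 3 in each case, which their choice by the lowest WT value favours. In the deletion list 1 of them passes 10.

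The summits of the 3 genotypes seldom fell on the same base. The nearest deletion summit lay a median of 69 bp from the WT summit (quartiles 29 and 136) and the nearest rescue summit 71 bp (30 and 140). The deletion and rescue summits lay 62 bp from each other (25 and 133). Within 100 bp lay the deletion summit of 63.7% of weak shared sites (62.8 to 64.7) and of 82.1% of strong shared sites (80.9 to 83.2), and the rescue summit of 62.2% (61.2 to 63.1) and 79.1% (77.8 to 80.3). The signed distances had medians of 3 bp for deletion and 2 bp for rescue. All 3 summits stood within 100 bp of each other at 42.1% of weak shared sites (41.2 to 43.1) and at 66.8% of strong shared sites (65.3 to 68.2). The rule used these distances up to 500 bp, so they are a description of the lists. With a match required within 100 bp in place of 500 bp, 4517 members remained.

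**Figure D3:**
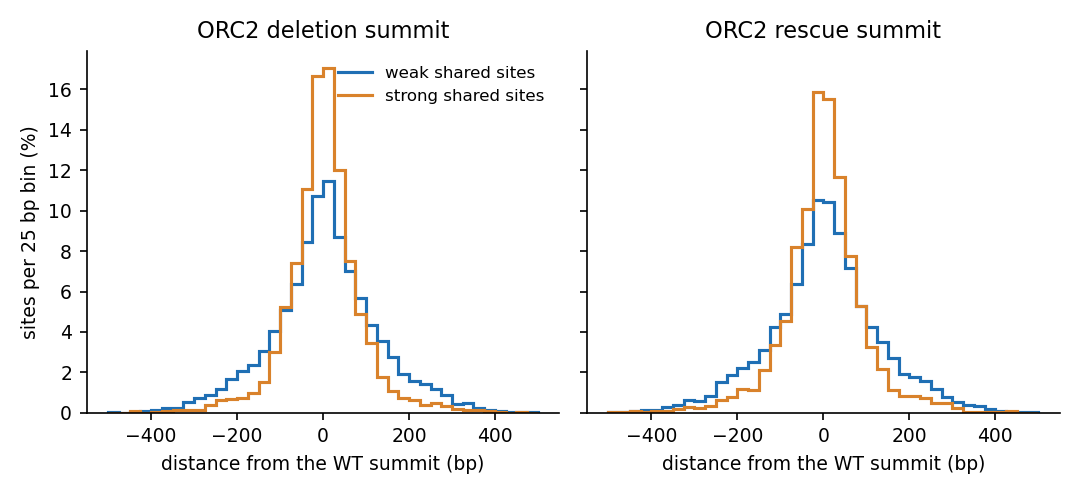
Lines show the percentage of sites per 25 bp bin of the signed distance from the WT summit to the nearest ORC2 deletion summit (left panel) and ORC2 rescue summit (right panel), for weak and strong shared sites. Weak shared sites spread more widely around 0, with median distances of 69 and 71 bp against 42 and 45 bp at strong shared sites.

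The distance was shorter where the WT value was higher. Members with a WT value below 2.5 had a median deletion distance of 101 bp and a median rescue distance of 96.5 bp, and members from 7.5 to 10 had 56 and 60 bp. Over the same classes the median deletion value was 8.18, 9.23, 11.7 and 14.0, and the median rescue value 4.79, 5.87, 7.12 and 8.41. Members at 10 or more in deletion and rescue had all 3 summits within 100 bp in 56.6% (54.4 to 58.9), and members below 10 in both in 31.2% (29.7 to 32.7).

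**Figure D4:**
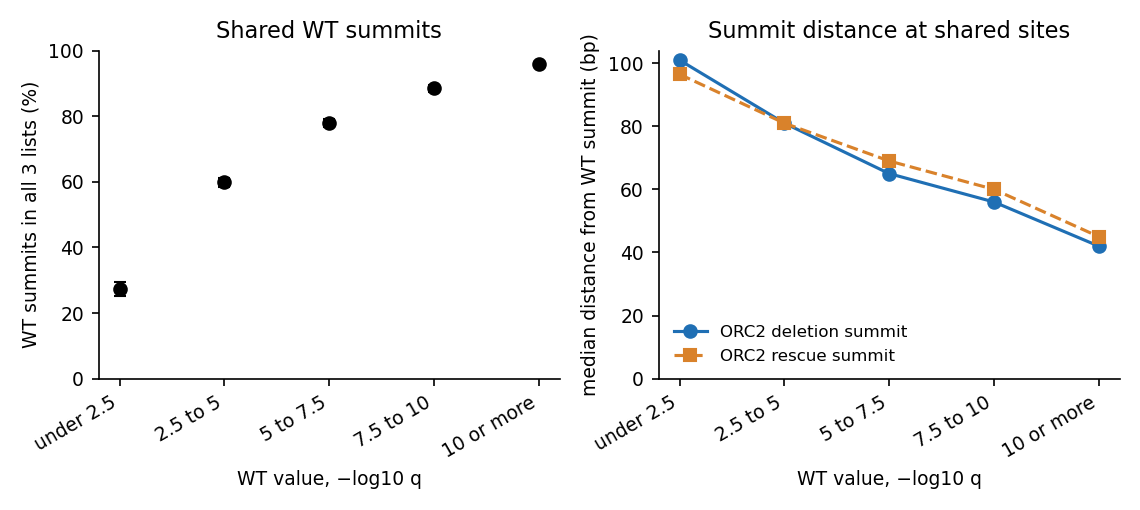
The left panel gives the percentage of WT summits that were in all 3 lists by class of the WT value, with 95% Wilson intervals, from 27.2% below 2.5 to 96% at 10 or more. The right panel gives the median distance in bp from the WT summit to the nearest ORC2 deletion and ORC2 rescue summit at shared sites in the same classes.

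The closest triples were chosen by the span of the 3 summits. At 5 members all 3 stood on 1 base. KLK10, a secreted serine protease, held such a site (chromosome 19, 51017055) with 26.1 in deletion, 20.5 in rescue and 8.69 in WT cells. S100A13, a calcium-binding protein, held one (chromosome 1, 153627716) with 13.7 in deletion, 7.01 in rescue and 8.14 in WT cells. The other 3 were 16068 bp from ITM2C (15.01, 4.77 and 6.66), inside EPOR, the erythropoietin receptor (8.44, 5.57 and 5.18), and inside STK10, a kinase of lymphocytes (7.52, 4.60 and 4.49), each in the order deletion, rescue and WT. A span of 1 or 2 bp was found near FBXO47, inside BECN1, a core autophagy protein, inside ACBD4, near ATP4A, the catalytic subunit of the gastric proton pump, and at 67217586 on chromosome 18. BECN1 had values of 4.57 in deletion, 2.05 in rescue and 2.53 in WT cells, so a close triple was not always a strong one.

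Position in the genome was not used by the rule. Of weak shared sites, 60.3% (59.4 to 61.3) lay inside a gene, beside 55.7% of strong shared sites (54.2 to 57.2) and 61.2% of weak summits not shared (59.8 to 62.6), and 59.4% of all WT summits. The difference from strong shared sites was 4.59 percentage points (interval 2.81 to 6.37), and that from weak summits not shared -0.889 points (-2.57 to 0.802). The gene table carries no exons, so intron, exon and untranslated region were not told apart.

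A gene start lay within 1 kb of 924 of the 9390 weak shared sites off chromosome 8, which has no start in the table used here. That is 9.84% (9.25 to 10.5), beside 13.0% of strong shared sites (11.97 to 14.1), 16.9% of weak summits not shared (15.9 to 18.1) and 12.3% of all WT summits. The difference was -3.13 percentage points from strong shared sites (interval -4.36 to -1.95) and -7.11 points from weak summits not shared (interval -8.37 to -5.88), so weak shared sites were less often near a start than either. Sites near each other are not independent, so these intervals are too narrow. The following splits were added after the data had been seen. Within classes of the WT value the difference from weak summits not shared was -6.06 points below 2.5, -9.25 from 2.5 to 5 and -7.75 from 5 to 7.5. From 7.5 to 10 it was -2.24 points, with an interval from -6.52 to 1.24 that takes in 0. With a match within 100 bp it was -3.23 points (-4.33 to -2.09). Weak summits with neither a deletion nor a rescue summit had a start within 1 kb in 19.5% (17.5 to 21.6), those with a deletion summit alone in 15.4% (14.1 to 16.8), and those with a rescue summit alone in 17.9% (14.4 to 22.1).

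**Figure D5:**
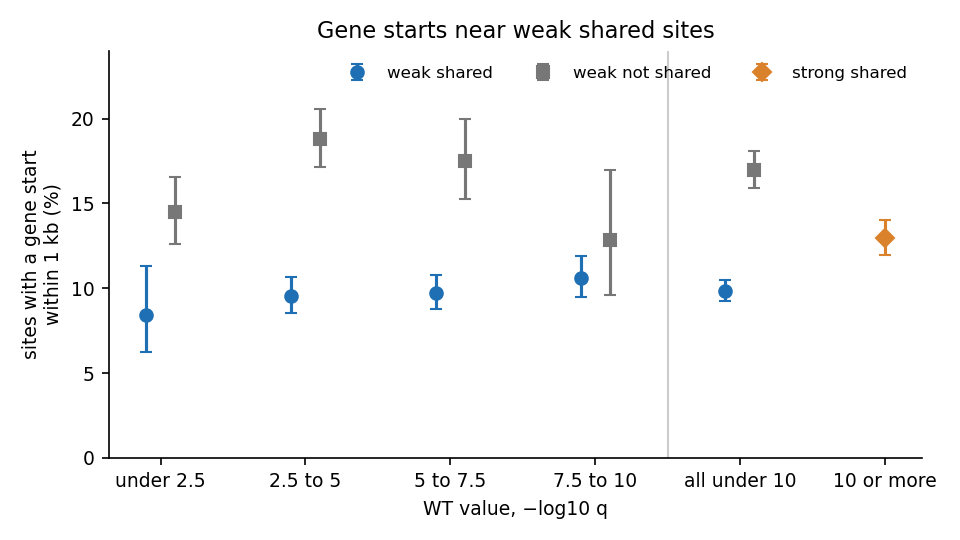
Points give the percentage of sites with a gene start within 1 kb by class of the WT value, with 95% Wilson intervals, for weak shared sites, weak WT summits not shared and strong shared sites, chromosome 8 not used. Weak shared sites sit between 8.42% and 10.6% in the 4 classes, below the weak summits not shared, whose interval overlaps theirs in the class from 7.5 to 10.

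The nearest other WT summit lay a median of 26495 bp from a weak shared site, 21021 bp from a strong shared site and 34405 bp from weak summits not shared. A strong shared site lay within 10 kb of 7.03% of members (6.54 to 7.55), of 9.92% of strong shared sites themselves (9.05 to 10.8) and of 5.09% of weak summits not shared (4.50 to 5.75). The difference was -2.89 points from strong shared sites (-3.94 to -1.88) and 1.94 points from weak summits not shared (1.119 to 2.73).

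With a reach of 50 kb, 8568 members could be given a protein-coding gene, and they named 6089 different genes. Inside protein-coding genes, 2715 genes held 1 member and 618 held 2. The most were in CAMTA1, with 10 members among 13 WT summits over 984 kb, and in DLGAP1, a scaffold of the postsynaptic density, with 9 of 16 over 959 kb. NHSL1 held 7 of 7, CDH23, a cadherin of inner ear hair cells, 7 of 8, and KCNAB1, a potassium channel subunit, 7 of 7. THSD4 and PLCB1, a phospholipase C, held 7 of 9 each. CACNA1A, a calcium channel, held 6 of 9, DISC1 6 of 6 and RIMS2, a protein of presynaptic active zones, 6 of 7. CDH23 had the highest median deletion value of these, 18.3, with 7.76 in rescue and 9.01 in WT cells. DISC1 had the lowest median WT value, 3.27, with 10.3 in deletion and 3.97 in rescue cells. These are long genes, from 271 to 984 kb, with 1 member per 38.7 to 126 kb.

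By gene list, the share of WT summits that were members is read beside the 51.6% of all WT summits (50.9 to 52.3). These totals take in WT summits of 10 or more, which cannot be members. Of WT summits below 10 alone, 67.3% were members. Up to 4 genes per list were taken by the WT value of their member. Values are printed for a part of them and do not stand for the list. Genes of cohesin, condensin and architectural factors had 27 members among 47 WT summits. LMNA, a nuclear lamin, held one with 9.44 in deletion, 5.84 in rescue and 9.91 in WT cells, and STAG1, a cohesin subunit, one with 8.80, 5.99 and 8.98 in the same order. PDS5B, a cohesin regulator, and ZNF143 were also among the first 4. Genes that license and fire replication origins, where ORC2 itself acts, had 16 of 32. ORC4, another subunit of the complex, held a member with 10.5 in deletion, 8.35 in rescue and 7.12 in WT cells. GMNN, an inhibitor of licensing, had one 7845 bp away with 5.55 in deletion, 5.21 in rescue and 8.86 in WT cells, so that its WT value was the highest of the 3. POLA2 and PRIM2, of the primase complex, followed. Polycomb, heterochromatin and DNA methylation genes had 28 of 45, and a site 31824 bp from MBD2, a reader of methylated DNA, had 29.7 in deletion, 21.1 in rescue and 9.69 in WT cells. CBX1 (15.4, 8.65 and 9.94 in the same order), TRIM28 (6.92, 6.22 and 9.72) and DNMT3A (11.3, 6.80 and 9.11) completed its first 4. The site of CBX1 lay 1252 bp and that of TRIM28 279 bp outside the gene.

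HOX genes had 11 members among 20 WT summits, with HOXB3 first (19.2 in deletion, 8.73 in rescue, 9.64 in WT cells), and imprinted genes 11 of 22, with a site in KCNQ1 at 15.6 in deletion, 14.9 in rescue and 7.37 in WT cells. Clustered protocadherins had 0 of 4, with an interval from 0 to 49.0% that lies below the share of all WT summits. It rests on 4 summits, of which 2 were below 10 and could be members. Developmental transcription factors had 63 of 128, led by SIX2, NEUROG2 (8001 bp away, 26.0 in deletion, 16.9 in rescue, 9.57 in WT cells), NKX2-1 and TBX3. WNT pathway genes had 50 of 85. ZNRF3, which removes WNT receptors from the cell surface, held a member with 10.4 in deletion, 18.5 in rescue and 9.64 in WT cells. Zinc finger genes had 85 of 220, or 38.6% (32.4 to 45.2), and the interval lies below the share of all WT summits. Of the 220, 168 were below 10. ZNF219 led them (2473 bp away, 29.9 in deletion, 20.4 in rescue, 9.99 in WT cells). Histone genes had 5 of 21 (23.8%, 10.6 to 45.1), and their interval also lies below the share of all WT summits. Of the 21, 13 were below 10. No list was tested, and with 18 lists some intervals miss the common share by counting error.

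Ribosomal protein genes had 31 of 63, with a site 300 bp from RPS26 at 29.1 in deletion, 17.2 in rescue and 8.88 in WT cells. Cell cycle genes had 16 of 41. A site 23397 bp from WEE1, a kinase that holds back mitosis, had 19.9 in deletion, 21.2 in rescue and 8.73 in WT cells. DNA damage genes had 23 of 43, including RAD51C, a recombination factor (14.4, 9.56 and 9.59 in the same order). FANCC, first by WT value, held a member at 6.78, 2.62 and 9.93. Genes of the p53 pathway and apoptosis had 25 of 48, and a site 3300 bp from BCL2, an inhibitor of apoptosis, stood at 26.3, 16.2 and 9.17. Intestinal epithelium genes, of the lineage of this line, had 30 of 61. EPHB2, a receptor of crypt cells, held one with 24.2 in deletion, 18.3 in rescue and 9.64 in WT cells. A site 20347 bp from EPHB3 had 7.83, 9.19 and 9.31 in the same order. Genes of other lineages had shares of a like order, 12 of 27 for mesenchymal, 53 of 106 for neuronal and 11 of 25 for haematopoietic genes. Of WT summits below 10 alone, members were 12 of 16, 53 of 92 and 11 of 17 in the same order. For intestinal genes they were 30 of 43. RBFOX3, a neuronal splicing factor, held a member at 16.4 in deletion, 22.2 in rescue and 9.73 in WT cells. KCNQ3, of the same list, held one at 5.52, 8.81 and 9.57. SPI1, a master factor of myeloid cells, held one at 20.6, 10.2 and 6.91. PTPRC, also of the haematopoietic list, had one 14258 bp away at 8.76, 1.90 and 7.79. The lists name genes by position only, and no expression was used here.

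By chromosome, members were 57.1% (47.6 to 66.2) of the weak WT summits on 21, 51.2% (46.2 to 56.1) on X and 72.6% (69.1 to 75.8) on 17. Chromosome X was singled out after its values had been seen. On X, 77.3% of weak WT summits (72.8 to 81.2) had a deletion summit and 58.4% (53.4 to 63.2) a rescue summit, beside 86.9% (86.3 to 87.4) and 70.4% (69.6 to 71.1) on the other chromosomes. Strong WT summits on X were shared in 30 of 32, 93.8% (79.9 to 98.3), beside 96% on the other chromosomes.

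The IgG lists held 34 summits in ORC2 deletion, 33 in ORC2 rescue and 17 in WT cells. Within 1 kb of any of them lay 6 of the 9834 members (0.0610%, 0.0280 to 0.133), 12 of the 4256 strong shared sites (0.282%, 0.161 to 0.492) and 3 of the 4777 weak summits not shared (0.0628%, 0.0214 to 0.184). The 6 members lay at 143247204 and 143263567 on chromosome 1, 46380918 on 16, 29262847 and 31068420 on 20 and 85660259 on 8. None of the 6 had a protein-coding gene within 50 kb. The authors' deposited lists of up and down CTCF regions hold 9603 and 364 regions, with no statement of how they were called. An up region held 0 of the 9834 members, 0 of the 4256 strong shared sites and 0 of the 4777 weak summits not shared, so the 0 is common to all 3 classes. By the Wilson interval these counts allow shares of up to 0.0390%, 0.0902% and 0.0804%, if they were free to vary. The up list may have been made so as to hold no WT summit, which cannot be checked here. Nothing is read from the 0. Of the members, 5 lay in down regions (0.0508%, 0.0217 to 0.119), beside 0 of the 4256 strong shared sites (up to 0.0902%) and 348 of the 4777 weak summits not shared (7.28%, 6.58 to 8.06). Members and strong shared sites all have a deletion summit by the rule. Among the weak summits not shared, 404 have a rescue summit alone and 1548 have neither. The choice of sites thus bears on this contrast, and nothing is read from it. The 5 members were chosen for naming after their values were seen. They lay in NRBF2, which takes part in autophagy (3.67 in deletion, 2.21 in rescue, 2.59 in WT cells), in STAU1, an RNA-binding protein (6.17, 3.65 and 4.83), near PEX26, a peroxisome factor (4.33, 11.1 and 4.10), near SYBU (1.97, 3.41 and 2.99) and at 112060440 on chromosome 4 (2.26, 5.24 and 3.04). Their deletion summits stood 172 to 391 bp from the WT summit. An up region lay within 10 kb of 11.1% of members (10.5 to 11.7), of 11.9% of strong shared sites (11.0 to 12.9) and of 10.5% of weak summits not shared (9.67 to 11.4). The differences were -0.805 points (-1.98 to 0.328) and 0.575 points (-0.511 to 1.63), and both intervals take in 0.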

How the data were processed

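The submitters' processing notes name the build hg38, MACS2 (no version given), SAMtools 1.12, Bowtie2 2.2.9 and FastQC 0.11.5. How peaks were called, whether duplicates were removed and whether IgG served as control is not given in the sources used here. Summit values deposited by the authors were taken as −log10 q, a reading from the values themselves, since in the CTCF lists they start at 1.304 to 1.308, just above the −log10 of 0.05. No scaling from list to list is stated. The authors deposited the up and down lists as region starts and ends with no score or other value. No list names a replicate.

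Coordinates were made 1-based, and each WT summit was matched to the nearest summit of another list. Shares have Wilson intervals and differences of shares Newcombe intervals. Genes came from RefSeq tables of GRCh38.p14, with 59098 genes and 34961 promoter windows, and chromosome 8 has no window. The members and lists were chosen with earlier results of these data known. Sites are named by the protein-coding gene that holds them or the nearest within 50 kb. Named are the first 10 by deletion value, by rescue value, by span and by motif, the 5 on each side of the limit and at the lowest WT value, the 10 genes with most members and up to 4 genes per list, from which values are given for a part, and 1 named site is not reported here. The planned motif windows around summits need a genome, which was not used here. Matching, gene lookup and the motif scan were first tested on simulated data. The tools were SciPy 1.17.1, statsmodels 0.14.6, pandas 2.3.3, NumPy 2.4.6 and, for plots, matplotlib 3.10.9, under Python 3.11.15.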

Additional observations from a re-analysis of the deposited data

How the results depend on the processing

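Of 43 values under alternative settings, 24 stayed within 1.5 times the count or within the interval of the reported value, and 19 moved. No direction reversed. The number of weak shared sites was 4517 with a match within 100 bp and 3701 with a WT value below 5, and 6800 to 12340 in the other settings. The share of weak WT summits in all 3 lists was 30.9% within 100 bp, 59.9% within 250 bp, 68.4% within 1000 bp and 55.3% with lists of equal length. Within 100 bp the median deletion value was 12.4 and the median rescue value 7.54. Within 250 bp the median distance was 62 bp to the deletion and 64 bp to the rescue summit, since a shorter limit leaves out far summits. The share near a gene start was 7.19% within 500 bp, 13.0% within 2 kb and 7.73% for protein-coding genes, the share inside a protein-coding gene 48.5%, and the share of sites in promoter windows with the looser motif 37.1%. Alternatives chosen after seeing the data moved the gene start difference from weak summits not shared to -3.23 points within 100 bp, -9.25 at WT values from 2.5 to 5 and -2.24 from 7.5 to 10, and that from strong shared sites to -1.81 points for protein-coding genes. Apart from the effect of a limit on the values it cuts, the cause was not tested. No paired analysis was possible because a single list stands for both CTCF libraries of a genotype, which also keeps a replicate from being left out. The unknown depth limits what a missing summit shows.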
